A study of Mus musculus with 16 samples.

Results

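The translation initiation and elongation factors form a set of 58 RNAs among the 12900 RNAs listed in the expression table. They are the RNAs whose symbols start with Eif1 to Eif6 or with Eef1 or Eef2. Of 62 such symbols, 4 belonged to pseudogenes and were left out. By name, 51 of the 58 members were initiation factors and 7 were elongation factors.

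Initiation factors bring the initiator tRNA, the small ribosomal subunit and the mRNA cap together and place the ribosome at the start codon. Elongation factors then deliver aminoacyl-tRNAs to the moving ribosome and shift it along the mRNA. The mRNAs of several elongation factors, of some eIF3 subunits and of the ribosomal proteins start with a stretch of pyrimidines, the 5′ terminal oligopyrimidine (TOP) sequence, through which growth signals control their own translation.

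Protrusions (Ps) and cell bodies (CB) were isolated from NIH/3T3 cells, a mouse fibroblast line. The cells had been stably transduced with a doxycycline-inducible lentiviral construct that holds the β-globin coding sequence and either the HBB 3′UTR, as the control, or the Pkp4 3′UTR, called the Pkp4 cUTR line. Both lines received 1 µg/ml doxycycline for 3 days and were starved of serum. The cells spread for 2 h on filters with 3.0 µm pores, with lysophosphatidic acid (LPA) added below for 1 h. A mild fixation (10 min, paraformaldehyde at 0.3%) came before Ps and CB were separated, so the RNA is from fixed cells. Each of the 4 groups (HBB Ps, HBB CB, Pkp4 Ps and Pkp4 CB) holds 4 replicates, and whether a line is 1 clone is not given in the sources used here. Ps and CB of a replicate came from separate filters, so the comparison is between groups and not within single cells.

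The 16 libraries held between 18660287 and 31260831 reads in listed RNAs, and replicates of a group correlated at 0.976 to 0.994 across all RNAs. The Pkp4 RNA, whose 3′UTR the construct carries, stood at 4.43 to 4.53 log2 CPM, the reads of an RNA scaled to a library of 1000000 reads and log-transformed, in HBB CB and at 8.26 to 9.32 in Pkp4 CB. Of 8 fibroblast markers 7 were listed, with a summed level of 14.26 to 14.97 log2 CPM over all samples, whereas the 7 listed of 12 epithelial, blood, endothelial and neuronal markers summed to 4.81 to 5.34. The summed fibroblast markers were lower in HBB Ps (14.26 to 14.35) than in HBB CB (14.74 to 14.95), and 5 of the 7 had log2 fold changes of -1.33 to -1.08, whereas Vim and S100a4 stood at 0.55 and 0.52. The part of such differences in the values of the translation factors was not tested. All values are relative to the RNA of a library, so that a fall of an RNA and a rise of the other RNAs in a fraction cannot be told apart.

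Translation factor RNAs were mostly enriched in protrusions of the control line. In HBB cells 38 of the 58 members were higher in Ps than in CB, 4 were lower and 16 did not pass the test (limma adjusted p under 0.05 over all 12900 RNAs). Across all RNAs 28.3% were called higher and 28.9% lower. The median log2 fold change (log2(FC)) of the members was 0.42, against 0.0060 for all RNAs. Without any scaling beyond the total reads of a library, the median of all RNAs moved to -0.23 and that of the members to 0.18. Then 28 members were called higher and 11 lower, beside 1940 and 5614 of all 12900 RNAs.

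The Pkp4 cUTR line gave counts of the same size from its own 8 samples. The 2 lines are not independent, as the fit shared its estimate of spread over all 16 samples and same-numbered samples varied jointly. In Pkp4 cUTR cells 38 members were higher in Ps, 5 were lower and 15 did not pass, against 28.2% of all RNAs called higher and 28.5% called lower. The members' median log2(FC) was 0.39, against 0.011 for all RNAs. With total-read scaling 23 members were called higher and 14 lower, beside 1797 and 5867 of all 12900 RNAs. Between the lines, 35 members were higher in both and 4 were lower in both, namely Eif3j1, Eif2ak3, Eif4g1 and Eef2k. Without Pkp4 Ps replicate 3 or without Pkp4 CB replicate 2, 7 of the 43 calls in that line were lost. Another 12 members were called in neither line, and 55 of 58 had the same sign in both. The same counts were not made for all RNAs, so this agreement is not shown to be particular to the members.

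**Figure D1:**
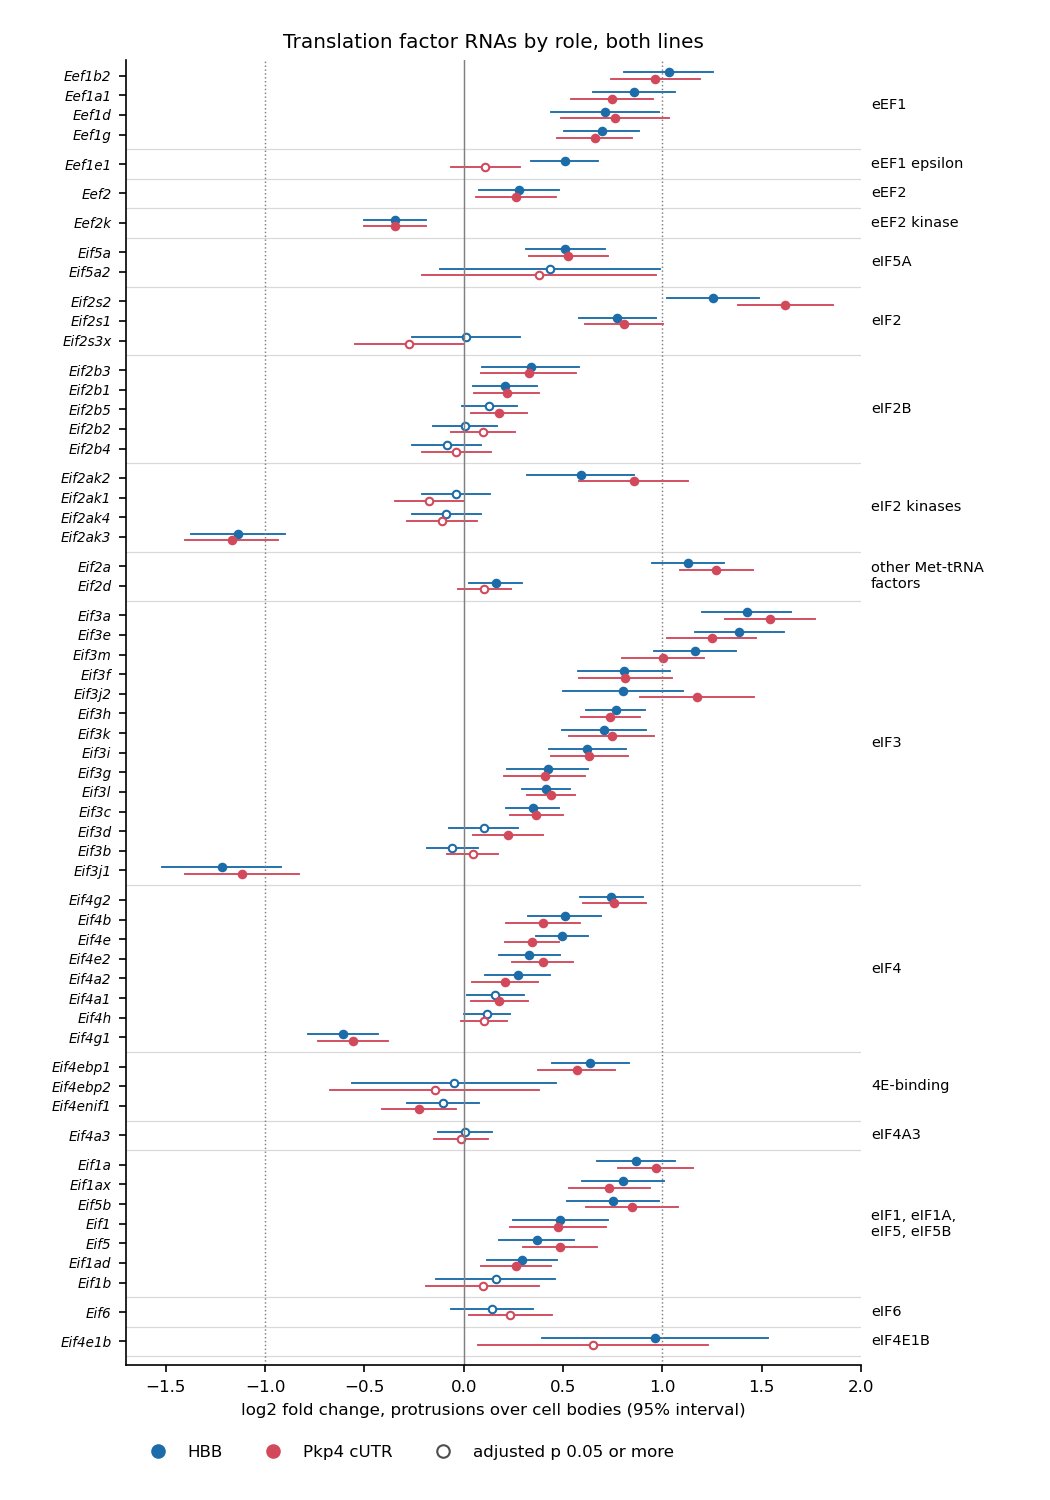
Log2 fold change of each of the 58 members, protrusions over cell bodies, in the HBB line (blue) and the Pkp4 cUTR line (red), with 95% intervals from limma and the members grouped by role. Filled points passed an adjusted p of 0.05, open points did not, and dotted lines mark 2-fold changes. Under the authors' scaling, which is plotted, most points lie right of 0 in both lines, and Eif3j1, Eif2ak3, Eif4g1 and Eef2k lie left of it.

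The samples themselves separated for most members. In HBB cells all 4 Ps samples lay above all 4 CB samples for 41 members (25.5% of all RNAs), and below them for 4 members (26.8% of all RNAs). In Pkp4 cUTR cells this held for 33 members above (22.6% of all RNAs) and 4 below (22.2% of all RNAs). With the study's threshold of a fold change above 2 and an unadjusted p under 0.05, 6 members were enriched in HBB Ps, while 4.54% of all RNAs were. These were Eif3a, Eif3e, Eif2s2, Eif3m, Eif2a and Eef1b2. By the same threshold 2 members, Eif3j1 and Eif2ak3, were depleted (4.00% of all RNAs). In Pkp4 cUTR cells 6 members were enriched and 2 depleted, beside 5.07% and 2.92% of all RNAs. The counts of enriched members fell to 3 in each line with total-read scaling.

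The reads of the members took up a larger share of the total reads in the Ps libraries. This share does not use the authors' scaling but amounts to total-read scaling, and the most abundant members weigh most in it. All members together held 4.99% ± 0.16 (SD, n = 4) of the reads in HBB Ps and 4.05% ± 0.06 in HBB CB. In the Pkp4 cUTR line the shares were 5.04% ± 0.27 and 4.25% ± 0.11. The 7 elongation factors made up most of this, with 3.61% ± 0.15 in HBB Ps and 2.83% ± 0.09 in HBB CB. The 51 initiation factors held 1.38% ± 0.02 and 1.22% ± 0.03. In both lines and for both classes, every Ps library had a larger share than every CB library.

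All 4 eEF1 subunits rose in both lines under the authors' scaling, whereas Eef1g lay below 0 in both with quantile normalization. Eef1a1 encodes the GTPase that carries aminoacyl-tRNA to the ribosome. Its level in the HBB Ps samples was 13.76, 13.68, 13.99 and 13.81 log2 CPM, and in HBB CB 13.09, 13.02, 12.98 and 12.73. The lowest Ps sample thus stood above the highest CB sample, and the log2(FC) was 0.86 ± 0.10 (SE, limma adjusted p = 1.03e-06). With quantile normalization, which forces the same distribution of values on every library, the log2(FC) of Eef1a1 was 0.032 (limma adjusted p = 0.676), and its adjusted p over all alternatives ranged from 5.83e-07 to 0.676. In the Pkp4 cUTR line the Ps samples read 13.96, 13.79, 13.71 and 13.69 and the CB samples 13.06, 13.20, 12.98 and 12.92, with a log2(FC) of 0.75 ± 0.10.

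Eef1b2 encodes a nucleotide exchange factor that recharges eEF1A, and it had the largest change of the elongation factors. HBB Ps samples stood at 11.56, 11.42, 11.72 and 11.40 log2 CPM and HBB CB samples at 10.51, 10.42, 10.47 and 10.57. The fold change was 2.04 in HBB (log2(FC) 1.03 ± 0.11, limma adjusted p = 3.41e-07) and 1.95 in Pkp4 cUTR cells (0.96 ± 0.11, limma adjusted p = 9.92e-07). This change passed the test in both lines under each of 24 alternatives, down to a log2(FC) of 0.32 in HBB and 0.22 in Pkp4 cUTR cells with quantile normalization. The gene overlaps Snora41 and other small RNA genes on its own strand and Ndufs1 on the other. The other exchange complex subunits, Eef1d and Eef1g, rose by 0.71 ± 0.13 and 0.69 ± 0.09 on the log2 scale in HBB and by 0.76 ± 0.13 and 0.66 ± 0.09 in Pkp4 cUTR cells, although Eef1g stood at -0.044 and -0.092 with quantile normalization.

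Eef2, the factor that translocates the ribosome, changed less than the eEF1 subunits. The HBB Ps samples read 13.89, 13.74, 14.00 and 13.86 log2 CPM and the HBB CB samples 13.59, 13.54, 13.71 and 13.54. The groups did not overlap, and the log2(FC) was 0.28 ± 0.10 (limma adjusted p = 0.0197). In Pkp4 cUTR cells it was 0.26 ± 0.10 (limma adjusted p = 0.0263). These calls were lost in 5 of 24 alternatives in HBB and in 7 of 24 in Pkp4 cUTR cells. The log2(FC) was -0.085 with quantile normalization in HBB and -0.00020 with total-read scaling in Pkp4 cUTR cells. Among single samples, leaving out HBB Ps replicate 3, HBB CB replicate 2, Pkp4 Ps replicate 1 or Pkp4 CB replicate 4 ended the call of that line.

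Eef2k encodes the kinase that phosphorylates and inhibits eEF2, and it was the elongation-class member that fell. HBB Ps samples stood at 6.54, 6.41, 6.45 and 6.47 log2 CPM, all below the HBB CB samples at 6.73, 6.79, 6.95 and 6.79. It decreased by 0.35 ± 0.07 on the log2 scale in both lines (limma adjusted p = 0.000674 in HBB and 0.000727 in Pkp4 cUTR cells), and the call held in all 24 alternatives of each line. Eef1e1 encodes a protein of the aminoacyl-tRNA synthetase complex that is named for its likeness to eEF1 subunits. It rose in HBB, by 0.51 ± 0.08 (limma adjusted p = 3.83e-05), and its log2(FC) of 0.11 ± 0.08 in Pkp4 cUTR cells did not pass (limma adjusted p = 0.266).

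With the classes taken by name, elongation factors were further toward the protrusions than initiation factors under the authors' scaling and total-read scaling. They were nearer to the cell bodies with quantile normalization. The median log2(FC) was 0.69 for elongation and 0.37 for initiation factors in HBB, and 0.66 and 0.38 in Pkp4 cUTR cells. Within same-numbered Ps and CB samples the elongation median exceeded the initiation median by 0.27 ± 0.10 (SD, n = 4) in HBB and by 0.19 ± 0.040 in Pkp4 cUTR cells, and it was the higher one in all 4 replicate numbers of both lines. With total-read scaling the medians were 0.46 and 0.13 in HBB and 0.40 and 0.11 in Pkp4 cUTR cells. With quantile normalization the order turned, to 0.032 and 0.36 in HBB and 0.061 and 0.32 in Pkp4 cUTR cells. A split by function counted Eif5a and Eif5a2 as elongation factors. It left out Eef2k, Eef1e1, Eif6, the eIF2 kinases and the eIF4E inhibitors. Its medians were 0.69 and 0.42 in HBB and 0.66 and 0.40 in Pkp4 cUTR cells under the authors' scaling. With quantile normalization they were 0.17 and 0.37 in HBB and 0.14 and 0.37 in Pkp4 cUTR cells. Eef2 was the most abundant RNA by reads in 15 of the 16 samples, Eef1a1 ranked between 2 and 4, and quantile normalization gives RNAs of one rank the same value in each library. The cytosolic ribosomal protein RNAs, 77 in number, had a higher median than either class, 1.11 in HBB, where 76 of them passed the test. Under quantile normalization their median was 0.53. These medians are descriptions of chosen lists and carry no test.

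**Figure D2:**
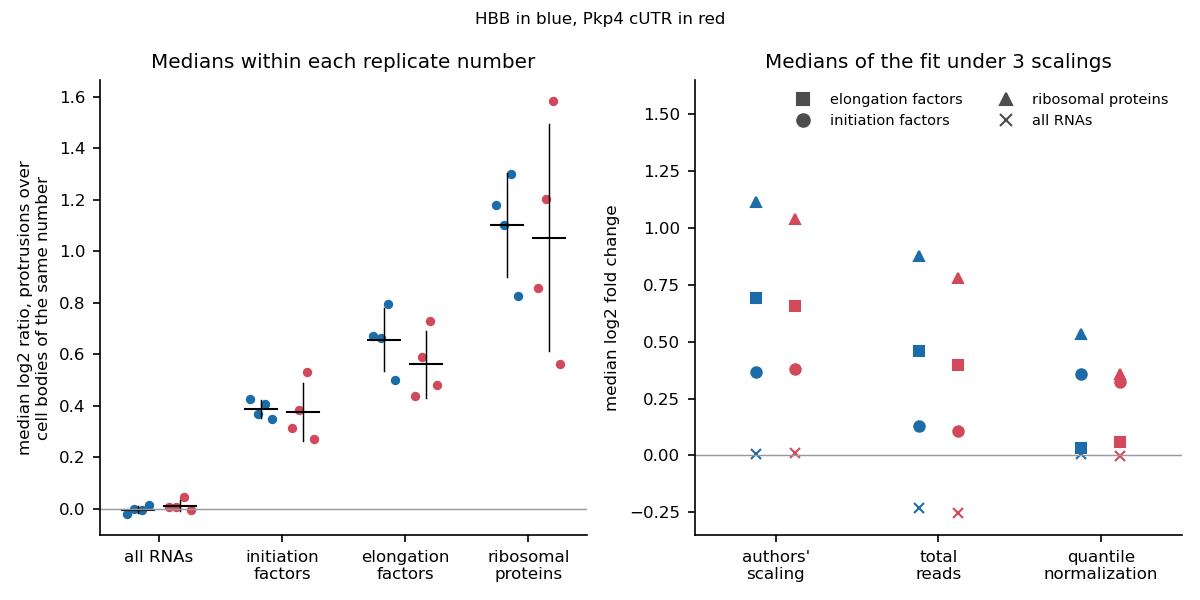
Left, median log2 ratio of same-numbered Ps and CB samples (points, 4 replicate numbers; bars, mean ± SD) for all RNAs, initiation factors, elongation factors and ribosomal protein RNAs, with HBB in blue and Pkp4 cUTR in red. Right, medians of the fitted log2 fold changes under the authors' scaling, total-read scaling and quantile normalization; elongation factors lie above initiation factors under the first and second and below them under the third.

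The eIF2 group showed unequal changes among the subunits of a single complex. eIF2 carries the initiator tRNA to the small subunit and consists of an α, a β and a γ chain. Eif2s2, the β subunit, stood at 5.09, 5.39, 5.46 and 5.41 log2 CPM in HBB Ps and at 4.25, 3.93, 4.15 and 3.97 in HBB CB. Its log2(FC) was 1.26 ± 0.11 in HBB (limma adjusted p = 5.96e-08) and 1.62 ± 0.11 in Pkp4 cUTR cells (limma adjusted p = 1.12e-08), the largest of all members there. Eif2s1, the α subunit, rose by 0.77 ± 0.09 in HBB and 0.81 ± 0.09 in Pkp4 cUTR cells. Eif2s3x, the X-linked γ subunit, read 4.09, 4.28, 4.14 and 4.32 in HBB Ps and 4.32, 4.26, 4.28 and 3.88 in HBB CB. These samples overlapped, and its log2(FC) was 0.010 ± 0.13 in HBB (limma adjusted p = 0.953) and -0.28 ± 0.13 in Pkp4 cUTR cells (limma adjusted p = 0.0788).

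eIF2B, the exchange factor that reloads eIF2 with GTP, changed little. Of its 5 subunits 2, Eif2b3 and Eif2b1, rose in HBB, with log2(FC) of 0.34 and 0.21, beside 28.3% of all RNAs. These 2 and Eif2b5 rose in Pkp4 cUTR cells, beside 28.2% of all RNAs. None of these 5 calls passed with total-read scaling, where 2 of the 5 subunits were called lower in each line. That scaling called 5614 of 12900 RNAs lower in HBB and 5867 in Pkp4 cUTR cells. Each of the 5 calls was also lost when 1 of several libraries was left out. In HBB these were Ps replicate 2 or CB replicate 2 for Eif2b3 and Ps replicates 3 and 4 or CB replicates 1 and 2 for Eif2b1. In Pkp4 cUTR cells they were Ps replicates 3 and 4 and CB replicate 2 for both, CB replicate 3 for Eif2b3, CB replicate 1 for Eif2b1, and Ps replicate 3 or CB replicates 1, 2 and 3 for Eif2b5.

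The 4 kinases that phosphorylate eIF2 under different stresses moved in different directions. Eif2ak3 encodes PERK, the kinase of the endoplasmic reticulum membrane. It stood at 3.57, 3.87, 3.76 and 3.62 log2 CPM in HBB Ps and at 4.87, 4.89, 4.88 and 4.70 in HBB CB. It decreased by 1.14 ± 0.11 on the log2 scale in HBB (limma adjusted p = 2.12e-07) and by 1.17 ± 0.11 in Pkp4 cUTR cells (limma adjusted p = 2.24e-07). Eif2ak2, the double-stranded RNA sensor PKR, had the opposite sign. Its HBB Ps samples read 2.42, 2.63, 2.38 and 2.48 and its HBB CB samples 1.86, 2.00, 1.93 and 1.73, and it rose by 0.59 ± 0.13 in HBB (limma adjusted p = 0.000731) and 0.86 ± 0.13 in Pkp4 cUTR cells (limma adjusted p = 2.88e-05). Eif2ak1, the heme-regulated kinase, and Eif2ak4, the amino acid sensor GCN2, had log2(FC) of -0.038 and -0.087 in HBB and -0.17 and -0.11 in Pkp4 cUTR cells, and none of these passed under the authors' scaling. Eif2a, which encodes a separate factor that can bind initiator tRNA and is no subunit of eIF2, rose by 1.13 ± 0.09 in HBB and 1.27 ± 0.09 in Pkp4 cUTR cells (limma adjusted p = 1.40e-08 and 9.98e-09).

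**Figure D3:**
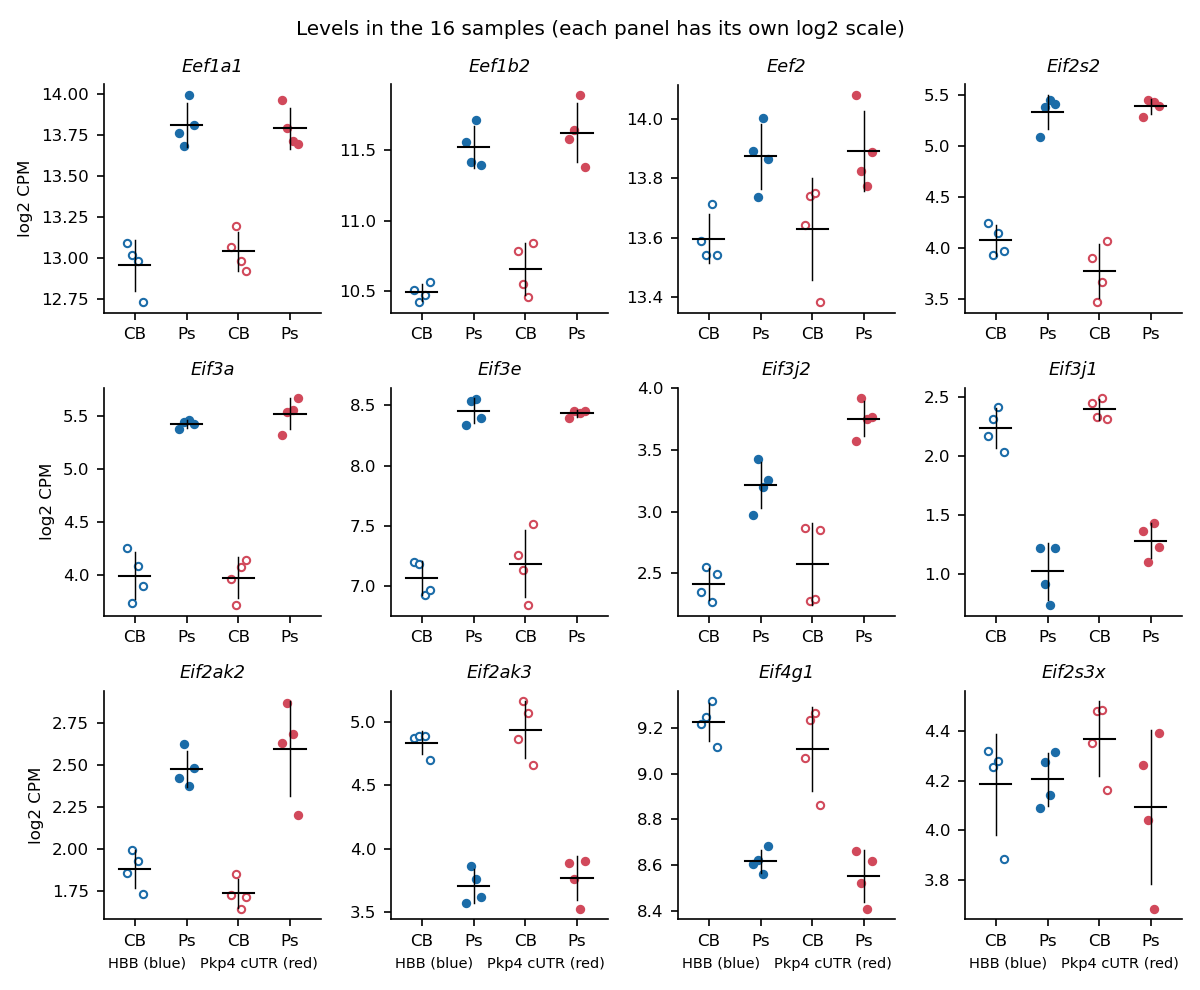
Log2 CPM of 12 members in the cell bodies (CB, open) and protrusions (Ps, filled) of the HBB line (blue) and the Pkp4 cUTR line (red), 4 replicates each, with the mean and SD as lines; each panel has its own scale. Ps samples lie above all CB samples for Eif2s2, Eif3a, Eif3e and Eif2ak2, below them for Eif3j1, Eif2ak3 and Eif4g1, and among them for Eif2s3x.

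eIF3, the large scaffold that holds the small ribosomal subunit and the mRNA together, accounted for 3 of the 6 members enriched over 2-fold in HBB. In HBB 11 of its 14 listed RNAs rose, 1 fell and 2 did not pass, beside 28.3% of all RNAs called higher and 28.9% lower. In Pkp4 cUTR cells 12 rose, 1 fell and 1 did not pass, beside 28.2% and 28.5%. With total-read scaling 9 were called higher and 2 lower in each line. That scaling called 1940 of 12900 RNAs higher and 5614 lower in HBB, and 1797 and 5867 in Pkp4 cUTR cells. Eif3a encodes the largest subunit and lies at chr19:60761117-60790658 (mm10, minus strand). It read 5.38, 5.44, 5.46 and 5.43 log2 CPM in HBB Ps and 4.26, 3.74, 4.08 and 3.90 in HBB CB. The log2(FC) was 1.43 ± 0.11 in HBB (limma adjusted p = 1.14e-08) and 1.54 ± 0.11 in Pkp4 cUTR cells (limma adjusted p = 1.05e-08), and it stayed above 1.18 in every alternative run.

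Eif3e followed at 8.34, 8.54, 8.55 and 8.40 log2 CPM in HBB Ps and 7.20, 7.19, 6.93 and 6.97 in HBB CB, a log2(FC) of 1.39 ± 0.11 (limma adjusted p = 1.49e-08). Eif3m rose by 1.17 ± 0.10 and Eif3f by 0.80 ± 0.11 in HBB. The 8 subunits that form the octamer core of eIF3 (a, c, e, f, h, k, l and m) all rose in both lines under the authors' scaling, with a range of 0.35 to 1.43 and a median of 0.78 in HBB, where 28.3% of all RNAs rose. With total-read scaling 7 of the 8 were called higher in each line, all but Eif3c. Among all 12900 RNAs 1940 were then called higher in HBB and 1797 in Pkp4 cUTR cells. Of the 3 subunits b, g and i, 2 rose and Eif3b did not pass, with a log2(FC) of -0.058. This division into core and other subunits was made after the values were seen and has no test.

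The eIF3j subunit is encoded by a pair of genes whose RNAs were called in opposite directions. Eif3j1, on chromosome 2, read 1.22, 0.91, 0.73 and 1.22 log2 CPM in HBB Ps and 2.17, 2.32, 2.42 and 2.03 in HBB CB, and it decreased by 1.22 ± 0.14 on the log2 scale (limma adjusted p = 1.39e-06). Eif3j2, on chromosome 18, read 2.97, 3.42, 3.19 and 3.26 in HBB Ps and 2.35, 2.55, 2.27 and 2.49 in HBB CB, and it rose by 0.80 ± 0.14 (limma adjusted p = 0.000124). In the annotation used here their coding sequences were identical over all 783 aligned bases. How the counting divided reads between such copies is not given in the sources used here, so that the value of each gene is uncertain. Eif3j1 also overlaps Gm47314 on its own strand and Spg11 on the other. None of the other pairs of paralogs examined was as close, with 57.4% to 85.6% of aligned coding bases identical.

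The eIF4 factors recognise the cap and unwind the 5′UTR. Of 8 RNAs 5 rose, 1 fell and 2 did not pass in HBB, beside 28.3% of all RNAs called higher and 28.9% lower. In Pkp4 cUTR cells 6 rose, 1 fell and 1 did not pass, beside 28.2% and 28.5%. With total-read scaling 3 were called higher and 1 lower in HBB, and 1 higher and 2 lower in Pkp4 cUTR cells. Among all 12900 RNAs these counts were 1940 and 5614 in HBB, and 1797 and 5867 in Pkp4 cUTR cells. Eif4g1, the scaffold that joins the cap-binding protein to the helicase and to eIF3, was the one that fell. Its HBB Ps samples stood at 8.61, 8.62, 8.56 and 8.68 log2 CPM and its HBB CB samples at 9.22, 9.25, 9.32 and 9.12. It decreased by 0.61 ± 0.08 on the log2 scale in HBB (limma adjusted p = 8.44e-06) and by 0.56 ± 0.08 in Pkp4 cUTR cells (limma adjusted p = 2.45e-05).

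Its paralog Eif4g2, which lacks the cap-binding protein's site and serves cap-independent initiation, had the opposite sign, at 7.68, 7.82, 7.78 and 7.81 in HBB Ps and 7.14, 7.18, 6.94 and 6.86 in HBB CB. It rose by 0.74 ± 0.08 in HBB (limma adjusted p = 2.68e-07) and 0.76 ± 0.08 in Pkp4 cUTR cells (limma adjusted p = 3.09e-07). The calls of Eif4g1 and Eif4g2 held in all 24 alternatives of each line. Eif4e, the cap-binding protein, rose by 0.49 ± 0.06 in HBB and 0.34 ± 0.06 in Pkp4 cUTR cells, and its relative Eif4e2 by 0.33 ± 0.07 and 0.40 ± 0.07. With total-read scaling Eif4e2 passed in neither line and Eif4e in HBB alone.

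Among the helicases, Eif4a2 rose by 0.27 ± 0.08 in HBB (limma adjusted p = 0.00641) and 0.21 ± 0.08 in Pkp4 cUTR cells (limma adjusted p = 0.0309), where it stood at -0.057 with total-read scaling. Eif4a1 had a log2(FC) of 0.16 ± 0.07 in HBB, which did not pass (limma adjusted p = 0.0555), and of 0.18 ± 0.07 in Pkp4 cUTR cells (limma adjusted p = 0.0330). It was below 0 in both lines with total-read scaling (-0.079 and -0.083) and with quantile normalization (-0.071 and -0.013). The Pkp4 call of Eif4a2 ended without Pkp4 Ps replicate 2 or 4 or without Pkp4 CB replicate 1 or 2, and that of Eif4a1 without Pkp4 Ps replicate 3 or without Pkp4 CB replicate 1, 2 or 3.

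The inhibitors that occupy eIF4E did not move together. Eif4ebp1 rose, at 8.68, 8.41, 8.77 and 8.53 log2 CPM in HBB Ps and 7.92, 7.83, 8.001 and 8.08 in HBB CB, by 0.64 ± 0.09 (limma adjusted p = 1.34e-05). Eif4ebp2 had a log2(FC) of -0.048 ± 0.25 in HBB and -0.15 ± 0.25 in Pkp4 cUTR cells, neither of which passed (limma adjusted p = 0.881 and 0.640). Its samples spread more than those of most members, from 4.75 to 6.04 log2 CPM within Pkp4 Ps. Eif4enif1, the eIF4E transporter, decreased by 0.22 ± 0.09 in Pkp4 cUTR cells (limma adjusted p = 0.0372), a call lost in 6 of 24 alternatives, among them the fits without Pkp4 Ps replicate 2 or 3 and without Pkp4 CB replicate 2 or 3. In HBB its log2(FC) was -0.10 (limma adjusted p = 0.322).

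Of the 7 factors of start codon selection and subunit joining, 6 rose in each line under the authors' scaling, beside 28.3% of all RNAs in HBB and 28.2% in Pkp4 cUTR cells. With total-read scaling 4 in HBB and 3 in Pkp4 cUTR cells were called higher, and with quantile normalization 5 in each. Among all 12900 RNAs total-read scaling called 1940 and 1797 higher, and quantile normalization 3661 and 3503. Eif1a and Eif1ax both encode eIF1A, which aids scanning, and rose by 0.87 ± 0.09 and 0.80 ± 0.10 in HBB. Eif5b, the GTPase of subunit joining, rose by 0.75 ± 0.11 in HBB and 0.85 ± 0.11 in Pkp4 cUTR cells. Eif1, which keeps the scanning ribosome open, rose by 0.49 ± 0.11 in HBB, whereas its paralog Eif1b stood at 0.16 ± 0.14 and did not pass (limma adjusted p = 0.351). Eif5a, which relieves stalled ribosomes, rose by 0.51 ± 0.09 in HBB. The calls of Eif1 and Eif5a were lost in both lines with quantile normalization. Its paralog Eif5a2, with 10 to 20 reads in a sample, had a log2(FC) of 0.43 ± 0.26 that did not pass (limma adjusted p = 0.168). No member fell below 3 reads in any sample, and Eif5a2 and Eif4e1b were the sparsest. Eif4e1b, an eIF4E relative best known from oocytes, was held by 10 to 34 reads and rose by 0.96 ± 0.27 in HBB (limma adjusted p = 0.00556).

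Per length, 4 of the 7 elongation factors had the highest levels of all members. Averaged over all samples, Eef1a1 reached 4330 CPM per kb of exonic length, Eef2 4138, Eef1g 1760 and Eef1b2 853. This length joins all annotated exons of a gene and can exceed that of its transcripts, so the order also depends on the annotation. Eef1d stood at 104, Eef2k at 13.8 and Eef1e1 at 4.50 CPM per kb, below many initiation factors. For Eef1d the joined exons held 6488 bases, and its mean level was 9.40 log2 CPM. The lowest was Eif5a2 with 0.136 CPM per kb. Within the octamer core of eIF3 the level per length ran from 3.04 CPM per kb for Eif3a to 688 for Eif3h, so that RNAs of subunits that meet in equal numbers in the complex differed widely. Eif3j1 stood at 0.570 CPM per kb, a value left uncertain by its copy Eif3j2. Eif2s2 and Eif2s3x stood at 3.70 and 4.87 CPM per kb.

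The start of each RNA was examined for a pyrimidine run of the TOP kind, defined as a C followed by at least 4 bases that are each C or T, read on the strand of the gene. RefSeq promoter sequences (GRCm38.p6) were at hand for 46 of the 58 members. The windows below run from 10 bases before the annotated start to 20 bases from it on, 5′ to 3′. Capitals mark a run counted from its first C within 5 bases of the annotated start, and pyrimidines farther out stay in lower case. Eif3f and Eif2s3x are shown as the only members whose annotated start is itself a C followed by at least 4 pyrimidines, Eef1a1, Eif3l and Eif2b5 for runs that begin up to 5 bases before the start, and Eef1b2, Eef2 and Eif3a as RNAs that rose and have no run beginning within 5 bases of it.
Eif3f, chr7:108934405-108934434, plus strand: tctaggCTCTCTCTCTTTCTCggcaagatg
Eif2s3x, chrX:94212632-94212661, minus strand: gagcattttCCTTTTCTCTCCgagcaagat
Eef1a1, chr9:78481705-78481734, minus strand: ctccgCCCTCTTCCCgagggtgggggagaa
Eif3l, chr15:79075213-79075242, plus strand: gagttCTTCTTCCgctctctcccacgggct
Eif2b5, chr16:20498807-20498836, plus strand: ctctttCTCTCCCTgcaactacaccttcgc
Eef1b2, chr1:63176821-63176850, plus strand: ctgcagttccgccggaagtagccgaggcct
Eef2, chr10:81176621-81176650, plus strand: aaggccgggcgttgacgtcagcggtctctt
Eif3a, chr19:60790674-60790703, minus strand: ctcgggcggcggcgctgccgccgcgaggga

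A run at the annotated start was present in 2 of 46 members (4.35%), in 3.09% of all 9065 tested RNAs with a promoter sequence and in 22.8% of the ribosomal protein RNAs. Eif3f rose by 0.80 in HBB and Eif2s3x stood at 0.010. When the run could begin within 5 bases on either side, 13 members (28.3%) had one, beside 23.8% of all RNAs and 47.4% of the ribosomal protein RNAs. The median log2(FC) of these 13 members in HBB was 0.0048, against 0.42 for the 33 members without. The transcript starts of GENCODE, a choice made after seeing the data, gave a run in 9 of 58 members (15.5%). They gave one in 5.91% of all RNAs and 28.6% of the ribosomal protein RNAs. The medians of the members were 0.74 with and 0.37 without. Each search found no run in most ribosomal protein RNAs, so a member without a run may still be a TOP mRNA. The 9 members known as TOP mRNAs from earlier work (Eef1a1, Eef1b2, Eef1d, Eef1g, Eef2, Eif3e, Eif3f, Eif3h and Eif4b) all rose in both lines under the authors' scaling, with a median of 0.76 in HBB, where 28.3% of all RNAs rose. With quantile normalization 5 of the 9 were called higher in each line, beside 3661 of 12900 RNAs in HBB and 3503 in Pkp4 cUTR cells. With total-read scaling 8 were called higher in HBB and 7 in Pkp4 cUTR cells, beside 1940 and 1797 RNAs. Of the 5 of them with a promoter sequence, 2 had a run within 5 bases.

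The GC content of a transcript moved with its enrichment, among the members and among all protein-coding RNAs. Spearman's rho between GC content and log2(FC) in HBB was -0.45 over the 58 members and -0.40 over 10955 protein-coding RNAs. Across these points all values come from the same 8 libraries, and GC content also varied with the level, with a rho of 0.48 for the members. In transcripts with 42% GC or less, 7 of 8 members rose in HBB, beside 57.7% of all such RNAs. Above 50% GC 14 of 28 members rose and 3 fell, beside 18.5% and 44.4% of all such RNAs. The member medians were above those of all RNAs in each of the 4 GC classes, for example 0.16 against -0.21 above 50% GC. Between coding length and log2(FC), rho was -0.23 in HBB and -0.15 in Pkp4 cUTR cells over the members, and -0.35 and -0.29 over 10957 protein-coding RNAs. Without the 4 members that fell in both lines, rho was -0.15 in HBB and -0.060 in Pkp4 cUTR cells. These 4 were left out by their log2(FC) itself, so the smaller rho cannot be read as a result about length. Among transcripts with coding lengths over 2400 bases 5 of 10 members rose, beside 16.3% of all such RNAs. The part of GC content and length in the enrichment was not tested.

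**Figure D4:**
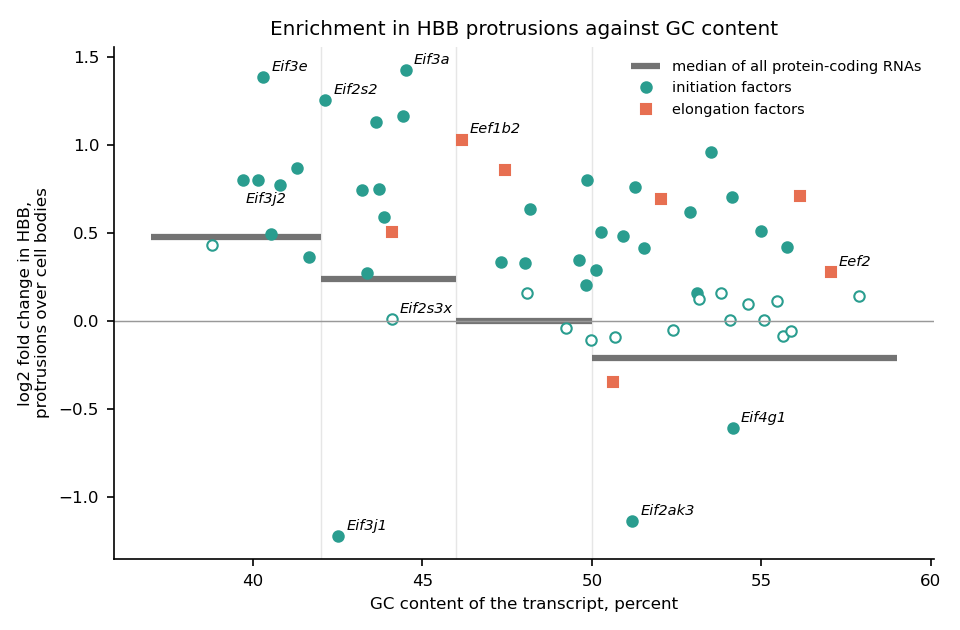
Log2 fold change in HBB cells, protrusions over cell bodies, against the GC content of the transcript with the longest coding sequence for the 51 initiation (circles) and 7 elongation factors (squares); filled symbols passed an adjusted p of 0.05. Grey bars are the medians of all protein-coding RNAs up to 42%, over 42 to 46%, over 46 to 50% and over 50% GC, and most members lie above them.

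Whether expression of the Pkp4 3′UTR changed the enrichment of these RNAs was tested with the difference of the log2(FC) between the lines, log2(Diff FC). No member and no RNA of the table passed limma's adjusted test (0.00% of 12900), and no member passed in any of 24 alternatives. At an unadjusted p under 0.05 limma gave 2 members and 300 of 12900 RNAs. The first was Eef1e1, with Ps samples at 4.02, 4.22, 4.19 and 4.11 log2 CPM in HBB and 3.88, 3.85, 3.96 and 3.98 in Pkp4 cUTR cells. Its CB samples stood at 3.57, 3.53, 3.63 and 3.79 in HBB and 3.81, 3.75, 3.72 and 3.97 in Pkp4 cUTR cells. The log2(Diff FC) was -0.40 (95% interval -0.64 to -0.16, limma adjusted p = 0.9997 beside an unadjusted limma p of 0.00278). The second was Eif2s2, with a log2(Diff FC) of 0.36 (0.029 to 0.70, limma adjusted p = 0.9997). The members' median log2(Diff FC) was -0.0042.

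Between the lines, levels in CB differed for 2 members, Eif3c and Eif1b, both higher in Pkp4 cUTR cells, while 3.42% of all RNAs were called higher and 5.55% lower. Eif3c stood at 7.96, 7.90, 7.88 and 7.73 log2 CPM in HBB CB and at 8.21, 8.22, 8.06 and 8.15 in Pkp4 CB, without overlap. The difference was 0.30 ± 0.06 (limma adjusted p = 0.00617) and held in all 23 alternatives, with adjusted p from 0.00124 to 0.0367. Eif1b differed by 0.44 ± 0.14 (limma adjusted p = 0.0475), with adjusted p of 0.0123 to 0.143 over the alternatives and no call in 16 of 23. The call held without HBB CB replicate 4, without Pkp4 Ps replicate 1 or 3 and without Pkp4 CB replicate 2, and was lost without any of the other libraries. With the replicate number as a block shared by the lines Eif1b passed (limma adjusted p = 0.0123). Eif2b5 passed as well with this block (limma adjusted p = 0.0470), against 0.0710 without it. The adjusted p of Eif2b5 ranged from 0.0160 to 0.201 over all alternatives.

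In Ps 5 members were higher in Pkp4 cUTR cells and none was lower, while 2.89% of all RNAs were called higher and 4.26% lower. Eif3c differed by 0.31 ± 0.06 (limma adjusted p = 0.00502), at 8.25, 8.20, 8.21 and 8.19 log2 CPM in HBB Ps and 8.52, 8.56, 8.59 and 8.43 in Pkp4 Ps, and this call held in all 23 alternatives. The other four were Eif3j2 (0.53, limma adjusted p = 0.0191), Eif1a (0.32, limma adjusted p = 0.0330), Eif2b2 (0.29, limma adjusted p = 0.0273) and Eif2b5 (0.25, limma adjusted p = 0.0272). Each of these was lost when 1 of several Ps libraries was left out, and 2 to 5 members were then called. Eif3j2 was lost without HBB replicate 1 or Pkp4 replicate 2, Eif2b2 without HBB replicate 2 or 4 or Pkp4 replicate 2 or 3, and Eif2b5 without HBB replicate 1, 2 or 4 or Pkp4 replicate 3 or 4. Eif1a was lost without HBB replicate 1, 3 or 4 or Pkp4 replicate 2, 3 or 4, and like Eif3j2 with total-read scaling. With the shared block Eif1b passed too (limma adjusted p = 0.0344, against 0.129 without the block). The Ps and CB comparisons between lines share their samples with the enrichment in each line and are not independent of it.

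**Figure D5:**
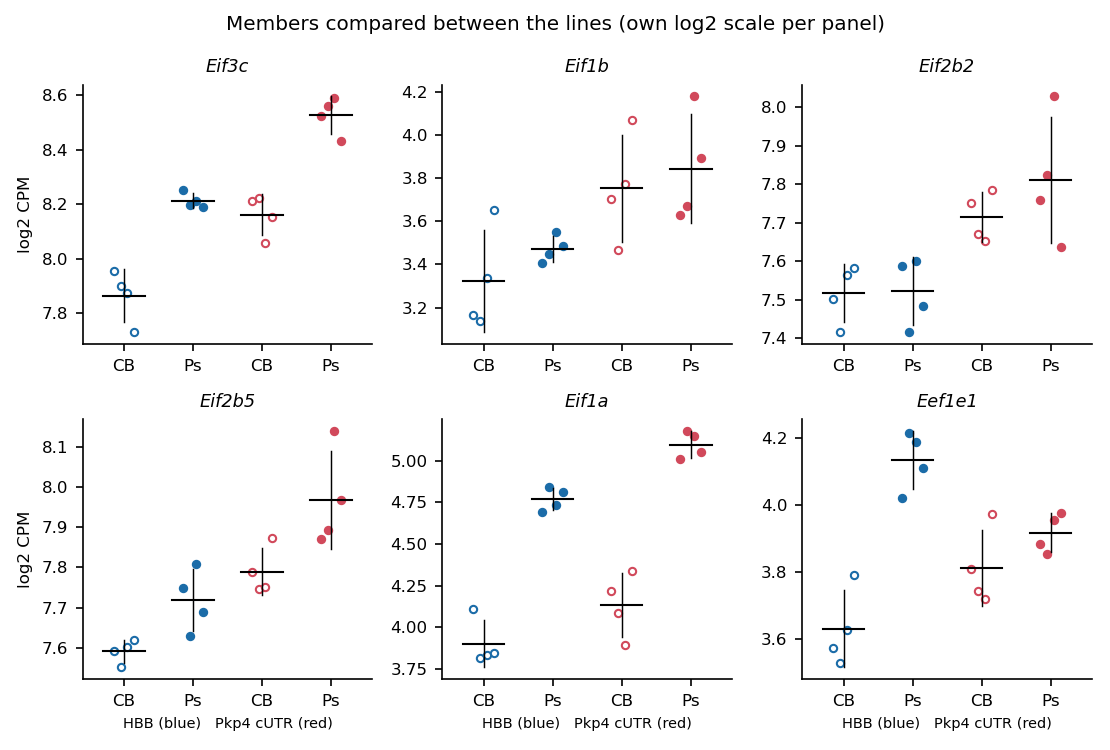
Log2 CPM of 6 members in cell bodies (CB, open) and protrusions (Ps, filled) of the HBB (blue) and Pkp4 cUTR (red) lines, with the mean and SD of 4 replicates as lines; each panel has its own scale. Eif3c is higher in the Pkp4 cUTR line in both fractions without overlap, and the gap between Ps and CB of Eef1e1 is wider in HBB.

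Of 33 other listed RNAs of translation control, for signalling to translation, poly(A) binding, release and recycling, 15 rose, 9 fell and 9 did not pass in HBB, beside 28.3% of all RNAs higher and 28.9% lower, with a median log2(FC) of 0.18. With total-read scaling 10 were called higher and 15 lower, beside 1940 and 5614 of all 12900 RNAs. Abce1, which recycles ribosomes, rose by 0.95 (limma adjusted p = 1.25e-07), and the kinase Mtor and its partner Rptor decreased by 0.38 and 0.46 (limma adjusted p = 0.00311 and 0.000526). Ppp1r15b, a subunit of the phosphatase that reverses eIF2 phosphorylation, decreased by 0.68 (limma adjusted p = 1.33e-06). Of 10 mitochondrial translation factors, encoded in the nucleus and used in the organelle, 2 rose in HBB and 4 in Pkp4 cUTR cells under the authors' scaling and none fell, with medians of 0.11 and 0.12, beside 28.3% and 28.2% of all RNAs called higher. With total-read scaling 2 were higher and 3 lower in HBB, and 2 higher and 4 lower in Pkp4 cUTR cells. In Pkp4 cUTR cells that scaling called 1797 of 12900 RNAs higher and 5867 lower.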

How the data were processed

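RNA was sequenced from protrusions and cell bodies of 2 NIH/3T3 lines in 16 samples, paired-end and with a stranded kit. The authors aligned reads to mm10 with STAR 2.4.2a after bcl2fastq 1.8.4, counted them per GENCODE gene with Rsubread (the strand setting is not given in the sources used here), and deposited limma 3.26.1 voom values, that is log2 CPM with 0.5 added to each read count. The stated limit was a log-CPM above 0.5 in at least 1 sample, but 1418 of the 12900 listed RNAs, Eif5a2 among them, never exceeded it, and the lowest maximum was -0.998 log2 CPM. The spacing of low values gave the reads behind each value and the scaled library size. All 206400 values came out whole (100%, within 0.01). The scaling factors were 0.828 to 0.974 in Ps and 1.07 to 1.11 in CB, by a method not given in the sources used here. A floor of 3 reads is 0.0890 to 0.176 CPM, and intervals cover counting or sample error only.

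Recovered reads were fitted in R 4.3.3 with limma 3.58.1 (voom, a mean per group, all 16 samples), with Benjamini-Hochberg adjustment over 12900 RNAs. The study calls the replicate samples independent, without saying that they were separate cultures, and p-values measure the spread between these samples. Count models other than limma's were not used. Scripts were tested on simulated data.

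Members and gene lists were chosen with earlier results of these data known. The text names, by rule, the core elongation factors, members with the largest called changes, those with the smallest p between lines, paralog pairs, eIF2 kinases and 4E-BPs, and where a small count needed it, members named after their values were seen. Alternatives were no precision weights, total-read scaling, quantile normalization, log2(CPM + 1), only RNAs with a mean over 0.5, replicate blocks, and leaving out each sample or both CB replicates 4. Samples of equal number in both lines varied jointly around their group means (correlations of 0.331 to 0.628 in CB and 0.196 to 0.392 in Ps over 10154 RNAs), so the number pairs the lines. Positions, lengths and GC content came from GENCODE for mm10, with lengths for 58 of 58 members and 12321 of 12900 RNAs.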

Additional observations from a re-analysis of the deposited data

Results flagged for a closer look

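In 164 groups of 4 samples over 41 named members, 10 held a sample far from the other three, and chance gives about 1 in 20 groups. Of these 10, 6 were cell bodies of replicate 4. In HBB CB replicate 4, Eif2ak3 stood at 4.70 log2 CPM (others 4.87 to 4.89), Eif4ebp2 at 5.50 (5.997 to 6.09), Eif2s3x at 3.88 (4.26 to 4.32), Eif4enif1 at 5.14 (5.40 to 5.46) and Eif1 at 9.91 (9.50 to 9.57). In Pkp4 CB replicate 4, Eif1 was also high, at 10.11 (9.68 to 9.75). In Pkp4 Ps replicate 3, Eif4a1 stood at 10.04 (9.80 to 9.84) and Eef1g at 12.79 (12.49 to 12.53). Eif1a was high in HBB CB replicate 1, at 4.11 (3.82 to 3.84), and Eif3b low in HBB Ps replicate 2, at 8.55 (8.69 to 8.70). Without both cell bodies of replicate 4, 39 members were called higher and 5 lower in HBB.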

How the results depend on the processing

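Of 27 named members called in HBB, 20 kept the call in every alternative, as did 18 of 28 in Pkp4 cUTR cells. With total-read scaling 11 members were called lower in HBB, and 23 were higher and 14 lower in Pkp4 cUTR cells. Among all 12900 RNAs 5614 were then lower in HBB, and 1797 higher and 5867 lower in Pkp4 cUTR cells. Under this scaling 3 members were over 2-fold in each line, and 1 in CB and 3 in Ps differed between lines. Between lines in CB, 1 was called without precision weights, 5 with quantile normalization and 1 with log2(CPM + 1). Leaving out single samples gave 34 to 39 higher and 4 lower members in HBB, 32 to 39 and 4 to 7 in Pkp4 cUTR cells, 1 to 4 between lines in CB and 2 to 5 in Ps. The elongation median minus the initiation median was -0.32 in HBB and -0.26 in Pkp4 cUTR cells with quantile normalization, and 0.33 in Pkp4 cUTR cells with log2(CPM + 1). A pyrimidine run was found in 28.3% of members within 5 bases and in 15.5% at GENCODE starts.

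Values turned sign for a few named members. In HBB quantile normalization gave Eif2ak1 0.036, Eif4ebp2 0.0062, Eef2 -0.085, Eif4a1 -0.071 and Eef1g -0.044, and total-read scaling gave Eif1b -0.078, Eif4a1 -0.079 and Eif2s3x -0.23. In Pkp4 cUTR cells total-read scaling gave Eif1b -0.17, Eef2 -0.00020, Eif4a1 -0.083 and Eif4a2 -0.057, and quantile normalization gave Eif4a1 -0.013 and Eef1g -0.092. Without HBB Ps replicate 2, HBB CB replicate 2 or HBB CB replicate 3, Eif4ebp2 in HBB was 0.0059, 0.0061 and 0.0091, and single omissions ranged from -0.18 to 0.0091. Eif2s3x in HBB was -0.012 without HBB Ps replicate 2, -0.027 without HBB Ps replicate 4 and -0.081 without HBB CB replicate 4, also when Pkp4 CB replicate 4 was left out, in a range of -0.081 to 0.055. Without Pkp4 Ps replicate 3, Pkp4 values of Eif1b and Eif4ebp2 were -0.018 and 0.11, in ranges of -0.018 to 0.19 and -0.37 to 0.11. The cause of these changes was not tested.

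Within a line, same-numbered Ps and CB samples had a mean correlation of 0.178 in HBB and -0.161 in Pkp4 cUTR cells. For samples of different number it was -0.062 and 0.061, so the number did not pair the fractions alike in both lines. With a replicate block within each line 37 members were higher and 4 lower in HBB and 38 and 4 in Pkp4 cUTR cells. With the block shared by the lines, 39 were higher and 4 lower in HBB, 39 and 5 in Pkp4 cUTR cells, 3 differed in CB and 6 in Ps. Depth limited Eif5a2 (10 to 20 reads a sample) and Eif4e1b (10 to 34), whose log2(FC) in HBB had SEs of 0.26 and 0.27.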
